A study of Mus musculus with 4 samples.

Results

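The genes described here are those that encode the chains of mouse collagens. They are the 44 protein-coding genes whose name follows the collagen pattern (Col, a type number, the letter a and a chain number), of 54446 genes in the deposited expression table. The rule itself used gene names alone and no measured value, but it was chosen with earlier results of these data known. Expression was measured by RNA-seq in 4 libraries from FACS-isolated retinal endothelial cells of C57BL/6 mice at postnatal day 16, with 100 cells in each library. Of these libraries, 2 were titled Zeb1-CKO and 2 were titled control. Zeb1 encodes a zinc-finger repressor that binds E-box motifs and is known for its part in epithelial-mesenchymal transition. The libraries titled Zeb1-CKO carry a genotype label that reads Zeb1 knockdown, and how Zeb1 was lowered, in which cells and by which Cre driver is not given in the sources used here. Nothing in the labels says whether the libraries came from separate animals or pools, so the p-values below measure the spread between these samples only, which may be technical.

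Collagens are extracellular proteins in which chains wind into a triple helix. Basement-membrane collagens build the sheet under endothelial cells: type IV forms its network, and types XV and XVIII are carried in and beside it. Fibrillar collagens (types I, II, III, V, XI, XXIV and XXVII) assemble into the fibres of connective tissue and are known chiefly from fibroblasts, mural cells and cartilage. The FACIT collagens, type IX among them, attach to fibrils, and type IX decorates type II fibrils in cartilage and in the vitreous of the eye.

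Several collagen genes lie beside one another in the genome, and stretches near the starts of the genes that the comparisons turn on are shown first. On mm10, Col4a1 (chr8:11198423-11312826, minus strand) and Col4a2 (chr8:11312805-11449287, plus strand) start head to head, with 22 bases of annotated overlap. Col4a4 and Col4a3 on chromosome 1 also start head to head, 71 bases apart, and Col4a6 and Col4a5 on chromosome X start 1308 bases apart. Col3a1 and Col5a2 end tail to tail on chromosome 1 with a gap of 24614 bases, and so do Col9a1 and Col19a1 with a gap of 9205 bases. The lines below hold the whole gap between the start sites of Col4a4 and Col4a3, read on the strand of Col4a4, and, read on the strand of the gene, stretches near the starts of Col3a1 and Col1a2, which had lower values in Zeb1-CKO, and of Col9a1 and Col9a2, which had higher values. They come from RefSeq promoter windows of GRCm38.p6 that run from 250 bases before to 50 after a start, with annotated exons left out. Those of Col3a1, Col9a1 and Col9a2 end at the base before the annotated gene. That of Col1a2 lies inside the annotated gene, whose first base is 4504814 on chromosome 6, and ends short of the RefSeq start, because the rest of its window is annotated as exon. Capitals mark a match to CAGGTG (the E-box form that ZEB proteins bind), CCAAT or TATAAA on either strand.
Col4a4 and Col4a3, chr1:82586850-82586920, minus strand: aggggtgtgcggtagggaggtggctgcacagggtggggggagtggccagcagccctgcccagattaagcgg
Col3a1, chr1:45311288-45311537, plus strand: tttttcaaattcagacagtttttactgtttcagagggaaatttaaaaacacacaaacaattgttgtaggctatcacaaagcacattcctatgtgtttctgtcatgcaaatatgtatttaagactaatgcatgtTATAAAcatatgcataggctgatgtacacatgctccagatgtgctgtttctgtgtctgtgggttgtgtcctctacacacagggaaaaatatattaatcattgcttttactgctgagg
Col1a2, chr6:4505370-4505492, plus strand: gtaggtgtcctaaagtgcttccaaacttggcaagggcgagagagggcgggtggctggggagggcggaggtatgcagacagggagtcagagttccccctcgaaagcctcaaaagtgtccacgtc
Col9a1, chr1:24177360-24177609, plus strand: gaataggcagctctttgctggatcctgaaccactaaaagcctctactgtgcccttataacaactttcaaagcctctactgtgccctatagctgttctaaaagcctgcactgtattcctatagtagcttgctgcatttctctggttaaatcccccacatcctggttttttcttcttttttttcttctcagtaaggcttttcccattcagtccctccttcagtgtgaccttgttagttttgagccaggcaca
Col9a2, chr4:121039316-121039384, plus strand: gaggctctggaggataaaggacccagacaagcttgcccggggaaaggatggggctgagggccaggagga

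Of these 5 stretches, only that of Col3a1 held a match to any of the 3 motifs, a TATAAA that starts at base 134 of the line. The table holds 38 windows for 35 of the 44 collagen genes. CAGGTG or its reverse complement was found in 5 of the 38 whole windows (13.2%), against 20.2% of all 32851 promoter windows. Windows of Col4a4, Col6a5, Col8a1, Col9a2 and Col16a1 held it, and those of Col4a4, Col9a2 and Col16a1 held it at a place not wholly within the exon-free stretch. CCAAT was in 13 collagen windows (34.2%), against 37.4% of all windows, and TATAAA was in 5 (13.2%), against 13.6%. Col1a2 and Col9a1 each had a window that held CCAAT at a place not wholly within the exon-free stretch. Matches of different motifs were counted separately, whether or not they overlap. A match is a description of the letters and says nothing of binding.

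The values deposited by the authors were read as FPKM, fragment numbers corrected for transcript length and library size, a scale on which levels can be compared between genes. The table's header names no unit. Library sums were 283814 and 291486 FPKM in Zeb1-CKO and 294276 and 293840 FPKM in control. Steps between low values put 1 fragment on a transcript of 2000 bases at about 0.0228 and 0.0298 FPKM in Zeb1-CKO and 0.0243 and 0.0447 FPKM in control, so control 2 was the shallowest library. That estimate rests on 19.6% to 29.1% of the values tried lying within 0.02 of a whole step. Zeb1 itself had 8.66 and 7.07 FPKM in Zeb1-CKO, against 10.7 and 11.1 FPKM in control (log2 fold change -0.43, SE 0.15, limma adjusted p = 0.235). Zeb1 thus did not pass the test, and the deposited gene value does not show which exons the reads came from. All 10 endothelial markers were measured in every library, with Cldn5 at 3133 and 3500 FPKM in Zeb1-CKO and 2692 and 3428 FPKM in control. RNA of mural cells, the pericytes and smooth muscle around vessels, was present too, since the pericyte marker Rgs5 stood at 1201 and 1262 FPKM in Zeb1-CKO and 1673 and 1348 FPKM in control.

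No collagen gene passed the test between the genotypes. Of the 44 genes, 20 reached an average of 1 FPKM across all libraries and entered a limma fit on log2(FPKM + 1) with all 13651 such genes, so every fold change is on that scale and understates the change of low genes. With Benjamini-Hochberg adjusted p under 0.05 as the threshold, 0 of the 20 were called higher and 0 lower, where 3.13% of all fitted genes were called (2.23% higher in Zeb1-CKO and 0.901% lower). At an unadjusted p under 0.05 there were 4 higher and 4 lower collagen genes (40% of the 20, against 17.9% of all fitted genes; 10.5% higher and 7.35% lower). The 4 higher ones were Col2a1, Col9a1, Col9a2 and Col9a3, and the 4 lower ones were Col1a2, Col3a1, Col5a2 and Col15a1. The median log2 fold change of the 20 was -0.13, against 0.02 over all fitted genes. The values of both genotypes were fully separated for 13 of the 20, against 49.4% of fitted genes. Both Zeb1-CKO libraries lay below both control libraries for 9 of them (45% of the 20, against 22.3% of fitted genes) and above both for 4 (20%, against 27.1%). Each of the 20 also averaged over 1 FPKM within each genotype, the lowest such mean being 1.01 FPKM for Col16a1 in Zeb1-CKO, so none entered the fit through 1 genotype alone.

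**Figure D1:**
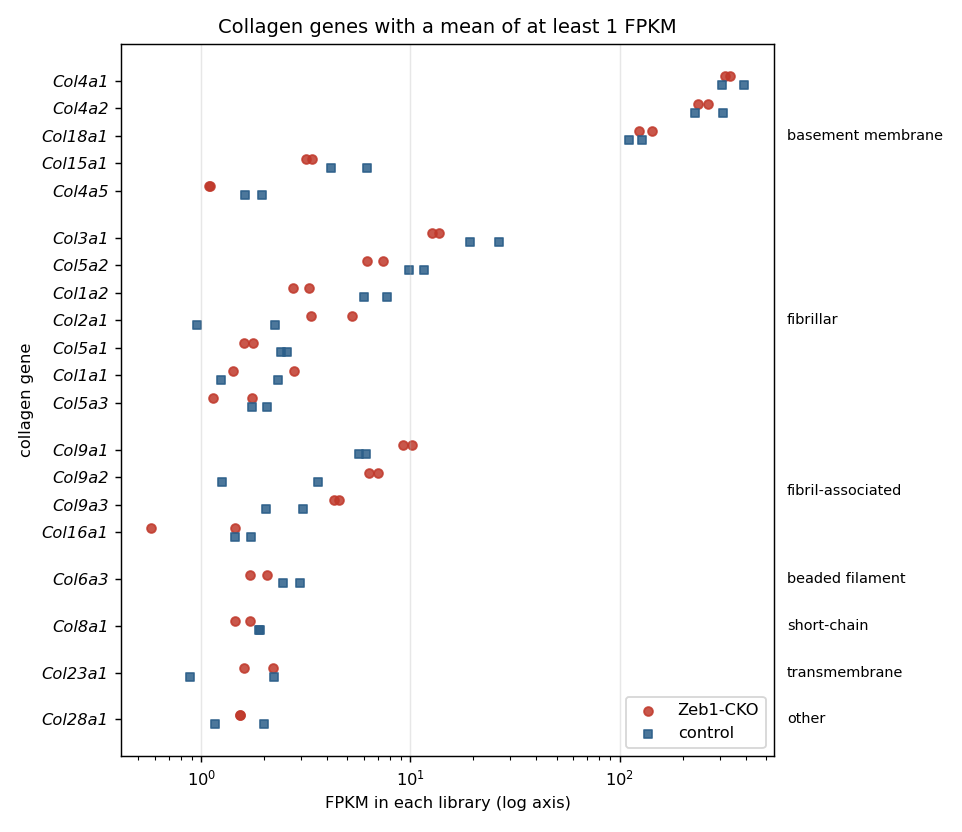
FPKM in each library of the 20 collagen genes that passed the filter on low values, on a log axis, ordered by class and level. Col4a1, Col4a2 and Col18a1 stand above 100 FPKM in every library and every other collagen gene below 30 FPKM.

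Basement-membrane collagen dominated the collagen signal of these libraries in both genotypes. The summed FPKM of all 44 genes was 812 and 748 in Zeb1-CKO and 717 and 924 in control. Col4a1, Col4a2 and Col18a1 together made up 91.4% and 90.5% of it in Zeb1-CKO and 90.1% and 90.0% in control. For each of these 3 genes the libraries of the genotypes overlapped.

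Col4a1, which encodes a chain of the main type IV network, had 335 and 317 FPKM in Zeb1-CKO, against 307 and 393 FPKM in control. Both Zeb1-CKO libraries lay between the control libraries. The log2 fold change was -0.09 (SE 0.17, 95% confidence interval -0.50 to 0.32, limma adjusted p = 0.817). Col4a2, whose chain joins that of Col4a1 in the same helix, had 265 and 236 FPKM in Zeb1-CKO, against 228 and 311 FPKM in control, again with both Zeb1-CKO libraries between the controls. Its log2 fold change was -0.09 (SE 0.19, interval -0.56 to 0.37, limma adjusted p = 0.841). The ratio of Col4a2 to Col4a1 was 0.791 and 0.743 in Zeb1-CKO and 0.744 and 0.789 in control, so the paired chains kept near the same proportion in all 4 libraries. The direction of both genes rests on control 2: without that library the log2 fold change was 0.09 for Col4a1 and 0.13 for Col4a2.

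Col18a1, the gene of the collagen from which endostatin is cut, had 143 and 124 FPKM in Zeb1-CKO, against 111 and 128 FPKM in control. The groups overlapped, and the log2 fold change was 0.16 (SE 0.15, interval -0.21 to 0.52, limma adjusted p = 0.636). Col15a1, the related multiplexin gene, was far lower, with 3.17 and 3.40 FPKM in Zeb1-CKO and 4.18 and 6.18 FPKM in control. Both Zeb1-CKO libraries lay below both controls, but the difference did not pass the test (log2 fold change -0.51, SE 0.20, limma adjusted p = 0.273).

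The minor type IV chains were near or below the filter on low values. Col4a5 had 1.08 and 1.10 FPKM in Zeb1-CKO and 1.96 and 1.62 FPKM in control (log2 fold change -0.41, SE 0.19, limma adjusted p = 0.342), and the groups did not overlap. Col4a3, with 0.895 and 1.03 FPKM in Zeb1-CKO and 0.558 and 1.18 FPKM in control, was below the filter. So was Col4a4, its head-to-head neighbour, with 0.758 and 0.569 FPKM in Zeb1-CKO and 0.925 and 0.883 FPKM in control. The chains of Col4a3, Col4a4 and Col4a5 form the type IV network of kidney and inner-ear basement membranes. Col4a6 did not exceed 0.229 FPKM in any library. In all, 0 of the 5 fitted basement-membrane genes of 8 were called, 4 had a negative log2 fold change and the median was -0.09.

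Fibrillar collagens were far less abundant, and most had lower values in Zeb1-CKO without any gene passing the test. Their summed FPKM was 33.3 and 32.7 in Zeb1-CKO and 42.4 and 55.8 in control, and the groups did not overlap. Of the 7 fitted genes of 11, 5 had a negative log2 fold change, the same 5 lay below both controls in both Zeb1-CKO libraries (22.3% of all fitted genes did), and the median was -0.38.

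Col3a1, the type III chain of vessel walls, had 12.7 and 13.7 FPKM in Zeb1-CKO, against 19.3 and 26.4 FPKM in control. Every control library was above every Zeb1-CKO library. The log2 fold change was -0.73 (SE 0.18, limma adjusted p = 0.111). Of its 9816 exon bases, 141 are shared with the same-strand annotation Gm47302, a predicted miRNA gene that had 9.19 and 10.2 FPKM in Zeb1-CKO and 10.6 and 14.3 FPKM in control. How reads there were divided is not given in the sources used here.

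Col1a2, a type I chain, came closest of the collagen genes to the threshold. It had 2.75 and 3.29 FPKM in Zeb1-CKO, against 6.00 and 7.74 FPKM in control, with no overlap. The log2 fold change was -0.96 (SE 0.18, limma adjusted p = 0.0575). Col1a1, which encodes the partner chain of type I collagen, did not share that pattern: it had 1.42 and 2.77 FPKM in Zeb1-CKO and 1.25 and 2.32 FPKM in control (log2 fold change 0.15, SE 0.31, limma adjusted p = 0.844). The ratio of Col1a2 to Col1a1 was 1.93 and 1.18 in Zeb1-CKO and 4.81 and 3.33 in control, and no test was made of this ratio.

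Type V chains sit inside type I and III fibrils and limit their width. Col5a2, the tail-to-tail neighbour of Col3a1, had 7.38 and 6.17 FPKM in Zeb1-CKO, against 9.86 and 11.6 FPKM in control, without overlap (log2 fold change -0.59, SE 0.16, limma adjusted p = 0.136). The ratio of Col5a2 to Col3a1 was 0.582 and 0.449 in Zeb1-CKO and 0.510 and 0.438 in control, so both genes were lower in Zeb1-CKO in similar proportion. Col5a1 had 1.60 and 1.76 FPKM in Zeb1-CKO and 2.56 and 2.40 FPKM in control (log2 fold change -0.38, SE 0.17, limma adjusted p = 0.334). Col5a3 had 1.75 and 1.14 FPKM in Zeb1-CKO and 1.75 and 2.07 FPKM in control, and its nearest libraries were equal at the digits shown (log2 fold change -0.26, SE 0.21, limma adjusted p = 0.587). Col11a1, Col11a2, Col24a1 and Col27a1 were below the filter, with 0.743 FPKM as their highest value.

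Markers of mural cells also had lower values in Zeb1-CKO, mostly without passing the test. All 10 pericyte markers had a negative log2 fold change, with a median of -0.32, and 7 of them lay below both controls, as 22.3% of all fitted genes did, though 0 were called. Their summed FPKM was 1725 and 1928 in Zeb1-CKO and 2493 and 2022 in control. The 6 fitted smooth-muscle markers of 7 were below both controls in both Zeb1-CKO libraries, against the same 22.3%, with a median log2 fold change of -0.70 and sums of 251 and 328 FPKM in Zeb1-CKO and 565 and 421 FPKM in control. One of them, Tagln, an actin-binding protein of smooth muscle, fell, with 7.85 and 8.57 FPKM in Zeb1-CKO and 16.6 and 14.8 FPKM in control (log2 fold change -0.85, SE 0.14, limma adjusted p = 0.0429). That call was lost in 8 of 11 alternative settings, among them leaving out any single library.

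Most microglia markers had lower values in Zeb1-CKO too. Of the 8 fitted of 10, 7 had a negative log2 fold change, 0 were called and the median was -1.22. Among the fitted markers, 4 lay below both controls and 1 above both (22.3% and 27.1% of all fitted genes did). P2ry12, below the filter on low values, also lay above both controls. C1qb, a complement subunit, and Tyrobp, a signalling adaptor, were chosen after their values were seen. They had the lowest log2 fold changes of the 8 fitted markers, so they do not stand for the whole list. C1qb had 2.47 and 1.22 FPKM in Zeb1-CKO and 5.03 and 15.7 FPKM in control (log2 fold change -1.85, SE 0.50, limma adjusted p = 0.130). Tyrobp had 1.86 and 1.67 FPKM in Zeb1-CKO and 5.12 and 19.1 FPKM in control (log2 fold change -2.00, SE 0.53, limma adjusted p = 0.127). Both were highest in control 2. That library also had the highest sums of fibrillar genes (55.8 FPKM), basement-membrane genes (842 FPKM) and all collagen genes (924 FPKM). Whether the marker values and the collagen sums are linked was not tested. No marker of the list was at 0 in any library.

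Of 8 fibroblast markers only 2 were fitted, and 0 were called. Pdgfra, a growth factor receptor, had 37.8 and 37.6 FPKM in Zeb1-CKO and 25.8 and 22.9 FPKM in control, and Fbln1, a matrix glycoprotein, had 5.12 and 7.29 FPKM in Zeb1-CKO and 11.5 and 7.96 FPKM in control. The fibroblast proteoglycan gene Lum had 0.224 and 0 FPKM in Zeb1-CKO and was listed at 0 in both control libraries, and Dcn did not exceed 0.0701 FPKM. The fibroblast sums were 44.1 and 46.1 FPKM in Zeb1-CKO and 38.0 and 31.8 FPKM in control. Most of each sum is Pdgfra alone, whose direction is opposite to that of Fbln1, so the sums do not describe the list as a whole. Which cells the Pdgfra RNA came from was not tested, so the sums are not read as a level of fibroblast RNA. In such bulk libraries fewer cells of a type and less RNA per cell cannot be told apart. The part that mural-cell or microglial RNA has in the fibrillar or basement-membrane values was not tested.

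**Figure D2:**
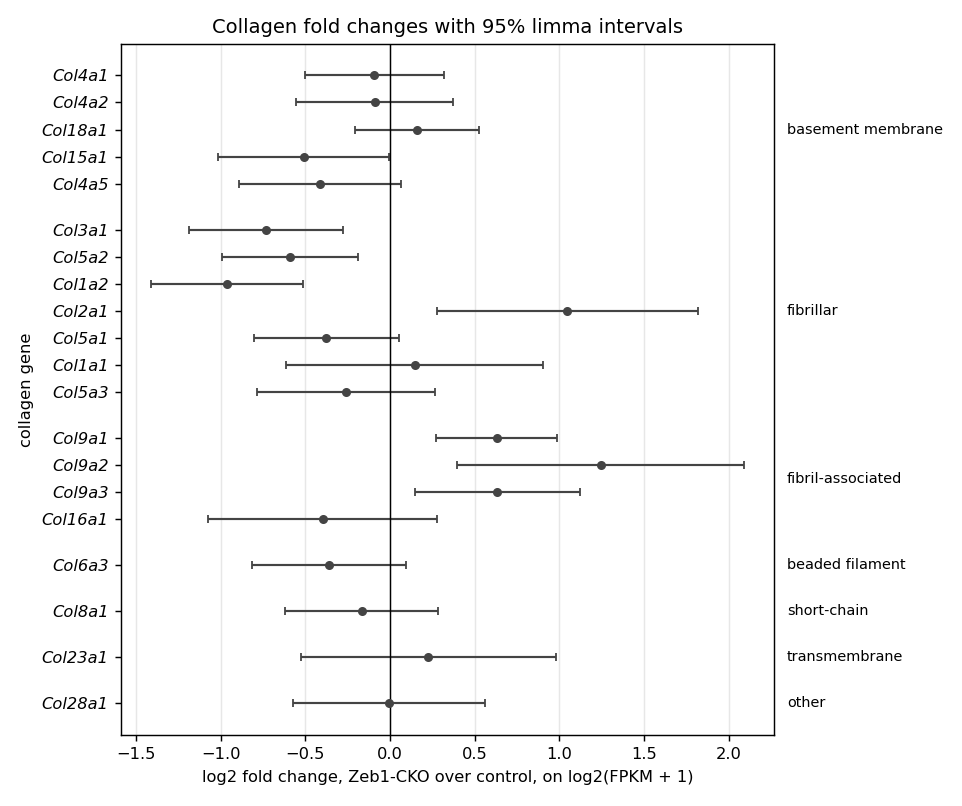
Log2 fold change, Zeb1-CKO over control, of the 20 fitted collagen genes, grouped by class, with limma's 95% confidence interval (not adjusted for the number of genes) as bars. The values run from -0.96 for Col1a2 to 1.24 for Col9a2, and none passed the adjusted threshold.

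Col2a1 and the 3 type IX genes had higher values in Zeb1-CKO, without passing the test, whereas 5 of the other 6 fitted fibrillar genes had a negative log2 fold change. Col2a1, the chain of cartilage and vitreous fibrils, had 5.28 and 3.34 FPKM in Zeb1-CKO, against 0.960 and 2.25 FPKM in control. The groups did not overlap, and the log2 fold change was 1.05 (SE 0.31, limma adjusted p = 0.162). It is the one fibrillar gene that lay above both controls, and without it the fibrillar sum was 28.0 and 29.3 FPKM in Zeb1-CKO and 41.4 and 53.6 FPKM in control.

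Type IX collagen is built of the products of Col9a1, Col9a2 and Col9a3, and all 3 genes were above both controls in both Zeb1-CKO libraries, as were 27.1% of all fitted genes. Col9a1 had 9.17 and 10.1 FPKM in Zeb1-CKO and 5.66 and 6.11 FPKM in control (log2 fold change 0.63, SE 0.14, limma adjusted p = 0.0905). Col9a2 had 6.34 and 6.99 FPKM in Zeb1-CKO, against 1.26 and 3.63 FPKM in control (log2 fold change 1.24, SE 0.34, limma adjusted p = 0.138). Its control libraries stood apart, and control 2 decides the call: without that library the log2 fold change was 1.76 and the limma adjusted p 0.0163, with control 1 as the lone control assumed to vary like the Zeb1-CKO libraries. Without control 1 instead, the log2 fold change was 0.72 and the limma adjusted p 0.151. The ratio of Col9a2 to Col9a1 was 0.691 and 0.689 in Zeb1-CKO and 0.222 and 0.594 in control.

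Col9a3 had 4.33 and 4.57 FPKM in Zeb1-CKO and 2.04 and 3.05 FPKM in control (log2 fold change 0.63, SE 0.20, limma adjusted p = 0.176). It shares 234 of its 3853 exon bases with Tcfl5 on the opposite strand, and the libraries did not keep strand. Tcfl5 had 0.661 and 0.257 FPKM in Zeb1-CKO and 0.199 and 0.213 FPKM in control. Summed over Col2a1 and the 3 type IX genes, the level was 25.1 and 25.0 FPKM in Zeb1-CKO and 9.91 and 15.0 FPKM in control, so the 2 Zeb1-CKO libraries nearly coincided while control 1 and control 2 differed.

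The other fitted FACIT gene was Col16a1, with 1.45 and 0.576 FPKM in Zeb1-CKO and 1.45 and 1.74 FPKM in control (log2 fold change -0.40, SE 0.27, limma adjusted p = 0.512). The median log2 fold change of the 4 fitted FACIT genes of 9 was 0.63, and 0 were called. Col12a1, Col14a1, Col19a1, Col20a1 and Col22a1 did not reach the filter. Col19a1, the tail-to-tail neighbour of Col9a1, did not exceed 0.0533 FPKM in any library.

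Beside the type II and IX values, the 8 markers of Müller glia and astrocytes summed to 323 and 361 FPKM in Zeb1-CKO and 303 and 328 FPKM in control. Of the 7 fitted, 0 were called, 4 lay above both controls and 1 below (27.1% and 22.3% of all fitted genes did), and the median log2 fold change was 0.37. The water channel Aqp4, a defining marker of these glia, was listed at 0 in both controls and had 0.0269 and 0.221 FPKM in Zeb1-CKO. It was the one marker of the list below the filter. Gfap, among those above both controls, had 68.2 and 137 FPKM in Zeb1-CKO and 56.7 and 60.6 FPKM in control. Glul, the 1 below both controls, had 44.9 and 45.3 FPKM in Zeb1-CKO and 71.9 and 64.8 FPKM in control. The 8 rod and cone markers summed to 34.1 and 39.5 FPKM in Zeb1-CKO and 65.5 and 7.96 FPKM in control, with 0 of 6 fitted genes called. The 6 pigment epithelium markers summed to 21.4 and 28.0 FPKM in Zeb1-CKO and 22.2 and 22.4 FPKM in control, with 0 of 2 called. Nearly all of that sum is Rlbp1, at 19.8 and 26.2 FPKM in Zeb1-CKO and 20.6 and 20.6 FPKM in control, which Müller glia also express and whose values are in their sum as well. Rpe65, the defining enzyme of the pigment epithelium, was listed at 0 in both Zeb1-CKO libraries and stood at 0.019 FPKM in both controls. Whether RNA of glia, photoreceptors or pigment epithelium has a part in the type II and IX values was not tested.

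Set against each other, basement-membrane collagen outweighed fibrillar collagen by more in Zeb1-CKO. The ratio of the summed FPKM of the 8 basement-membrane genes to that of the 11 fibrillar genes was 22.5 and 20.9 in Zeb1-CKO and 15.4 and 15.1 in control. The difference of the mean log2 ratios was 0.51, and the groups did not overlap. A score over chosen genes gets no test here. The numerator did not separate the genotypes, with sums of 748 and 683 FPKM in Zeb1-CKO and 654 and 842 FPKM in control, while the fibrillar sums did. As a share of all collagen FPKM, fibrillar genes held 4.11% and 4.37% in Zeb1-CKO and 5.91% and 6.04% in control. With Col4a1 and Col4a2 alone set against Col1a1, Col1a2 and Col3a1, the ratio was 35.6 and 27.9 in Zeb1-CKO and 20.1 and 19.3 in control, a log2 difference of 0.68. FACIT genes summed to 21.9 and 22.6 FPKM in Zeb1-CKO and 10.8 and 15.2 FPKM in control. The sums of the mural-cell markers were, like the fibrillar sum, lower in both Zeb1-CKO libraries than in both control libraries. Between the controls the order differed. The fibrillar sum was higher in control 2 than in control 1 (55.8 against 42.4 FPKM). The pericyte sum (2022 against 2493 FPKM) and the smooth-muscle sum (421 against 565 FPKM) were lower in control 2. Most of each pericyte sum is Rgs5 alone (1348 against 1673 FPKM), and most of each smooth-muscle sum is Myl9 (283 against 391 FPKM). Single markers did not share 1 order: Pdgfrb, Cspg4, Vtn, Des and Cnn1 were higher in control 2 and the other mural-cell markers lower. The order of the sums thus does not describe the lists as a whole.

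**Figure D3:**
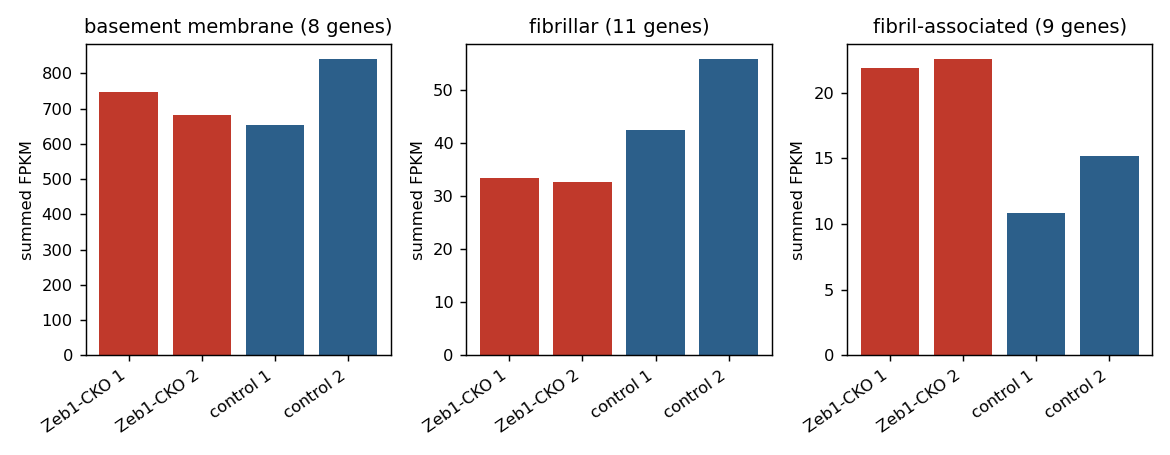
Summed FPKM of the basement-membrane, fibrillar and FACIT (fibril-associated) collagens in each library, 1 bar a library, each class on its own linear axis. The basement-membrane sums of the genotypes overlap, and the Zeb1-CKO libraries are lower for fibrillar and higher for FACIT collagens.

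The remaining fitted collagens had low levels. Col6a3, a chain of the beaded filaments of type VI, had 1.72 and 2.06 FPKM in Zeb1-CKO and 2.98 and 2.45 FPKM in control (log2 fold change -0.36, SE 0.18, limma adjusted p = 0.377). Its partner genes Col6a1 and Col6a2 did not exceed 0.333 FPKM and 0.925 FPKM in any library. Col8a1, a short-chain collagen of vessels and of the corneal Descemet membrane, had 1.71 and 1.45 FPKM in Zeb1-CKO and 1.90 and 1.89 FPKM in control (log2 fold change -0.17, SE 0.18, limma adjusted p = 0.690). Both of these genes lay below the controls without overlap.

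The transmembrane collagen gene Col23a1 had 1.60 and 2.20 FPKM in Zeb1-CKO and 0.888 and 2.23 FPKM in control, with overlap (log2 fold change 0.23, SE 0.30, limma adjusted p = 0.748). Col28a1 had 1.53 and 1.54 FPKM in Zeb1-CKO and 1.17 and 1.99 FPKM in control, also with overlap (log2 fold change -0.01, SE 0.23, limma adjusted p = 0.993). The 24 collagen genes below the filter had values of 0 to 1.18 FPKM and means of 0.0054 to 0.914 FPKM, and no one of them was at 0 in every library.

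Among the genes that handle collagen after translation, the 18 listed folding and modifying genes were all fitted, 1 rose and 1 fell, and 16 did not pass the test. Of all fitted genes, 2.23% rose and 0.901% fell. Their median log2 fold change was 0.09. P3h2, a prolyl 3-hydroxylase that acts on type IV collagen among others, rose, with 12.4 and 16.2 FPKM in Zeb1-CKO and 5.53 and 4.86 FPKM in control (log2 fold change 1.30, SE 0.18, limma adjusted p = 0.0239). Colgalt1, which adds galactose to hydroxylysines of collagen, fell, with 17.1 and 17.8 FPKM in Zeb1-CKO and 35.3 and 34.3 FPKM in control (log2 fold change -0.96, SE 0.13, limma adjusted p = 0.0226). The libraries of each genotype lay close to each other for Colgalt1, and the genotypes did not overlap. Of 11 alternative settings, the Colgalt1 call was lost in 6 and the P3h2 call in 5. Leaving out any single library ended it for Colgalt1 (adjusted p 0.0643 to 0.135), leaving out Zeb1-CKO 1, Zeb1-CKO 2 or control 2 ended it for P3h2 (adjusted p 0.0864, 0.128 and 0.0629), and so did fitting without the filter on low values for both (adjusted p 0.0904 for Colgalt1 and 0.140 for P3h2). Both genes share exon bases with an opposite-strand gene, Unc13a for Colgalt1 (495 bases) and Gm4524 for P3h2 (1055 bases), and neither of these exceeded 0.784 FPKM.

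The most abundant folding genes did not pass the test. P4hb, the disulfide isomerase subunit of prolyl 4-hydroxylase, had 233 and 206 FPKM in Zeb1-CKO and 181 and 191 FPKM in control (log2 fold change 0.24, SE 0.14, limma adjusted p = 0.435). Fkbp10, a prolyl isomerase of the endoplasmic reticulum, had 121 and 123 FPKM in Zeb1-CKO and 122 and 134 FPKM in control (log2 fold change -0.06, SE 0.13, limma adjusted p = 0.843).

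Of 6 crosslinking genes 4 were fitted and 1 was called higher, where 2.23% of all fitted genes were. Pxdn, peroxidasin, which forms sulfilimine bonds between type IV collagen molecules, rose, with 37.1 and 35.5 FPKM in Zeb1-CKO and 21.5 and 22.0 FPKM in control (log2 fold change 0.71, SE 0.13, limma adjusted p = 0.0498). That call stood at the edge of the threshold and was lost in all 11 alternative settings (adjusted p 0.0529 to 0.202). The lysyl oxidase family members Loxl1, Loxl2 and Loxl3, which crosslink collagen and elastin, had log2 fold changes of 0.13, -0.22 and -0.18 and were not called.

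Secretion and receptor genes gave no call. Of 12 genes for secretion and propeptide processing, 6 were fitted, with a median log2 fold change of 0.04. Sec23a, a coat subunit of transport vesicles, had 21.3 and 19.0 FPKM in Zeb1-CKO and 16.9 and 15.4 FPKM in control (log2 fold change 0.30, SE 0.14, limma adjusted p = 0.335). Bmp1, the protease that cuts the C-terminal propeptide of fibrillar procollagens, had 13.1 and 15.2 FPKM in Zeb1-CKO and 16.9 and 15.3 FPKM in control (log2 fold change -0.18, SE 0.15, limma adjusted p = 0.586). Pcolce, the enhancer of that cut, was chosen after its values were seen and had 9.93 and 10.5 FPKM in Zeb1-CKO and 16.8 and 15.9 FPKM in control (log2 fold change -0.63, SE 0.13, limma adjusted p = 0.0769).

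Of 9 receptors 6 were fitted and 0 called, with a median of -0.11. Itgb1, the common beta chain of collagen-binding integrins, had 240 and 223 FPKM in Zeb1-CKO and 208 and 229 FPKM in control (log2 fold change 0.09, SE 0.13, limma adjusted p = 0.787). Itga1, an alpha chain that binds type IV collagen, had 23.6 and 22.6 FPKM in Zeb1-CKO and 32.5 and 32.4 FPKM in control (log2 fold change -0.47, SE 0.13, limma adjusted p = 0.129), and its groups did not overlap. Itga2, another alpha chain, was chosen after its values were seen and went the other way. It had 4.96 and 4.60 FPKM in Zeb1-CKO and 0.959 and 2.74 FPKM in control (log2 fold change 1.09, SE 0.32, limma adjusted p = 0.156). Of the 6 fitted receptors, 1 lay above both controls and 2 below (27.1% and 22.3% of all fitted genes did).

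**Figure D4:**
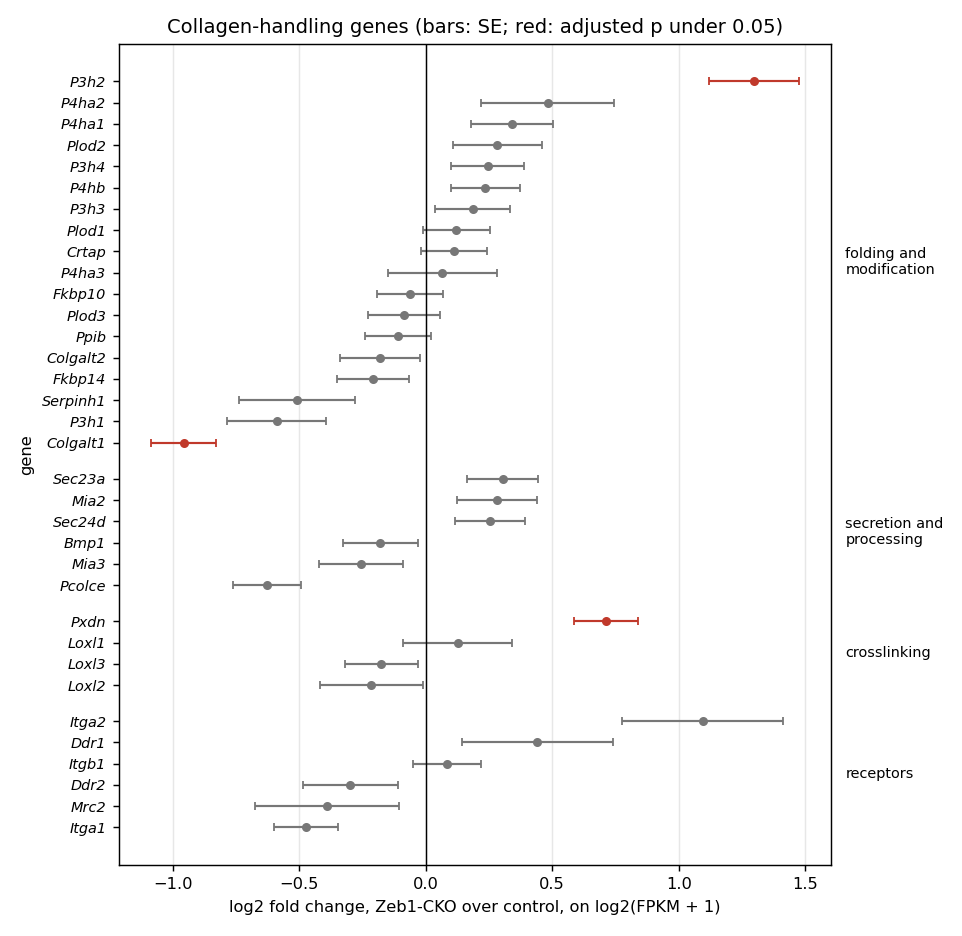
Log2 fold change, Zeb1-CKO over control, of the fitted genes for collagen folding, secretion, crosslinking and receptors, with the standard error as bars and the called genes in red. P3h2 (1.30) and Pxdn (0.71) lie above 0 and Colgalt1 (-0.96) below it, and all other genes shown did not pass the threshold.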

How the data were processed

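RNA was amplified with SMART-Seq v4 from 100 sorted cells per library, per the labels' protocols, and sequenced as paired ends. The submitters' processing notes name Trimmomatic 0.36, HISAT2 2.1.0, StringTie 1.3.3 and the mm10 build, with no further settings. The values deposited by the authors were read as FPKM per gene, one column per library, not pooled. The file header names no unit, which was taken from the values (not whole, sums below those of TPM) and from the StringTie of the notes.

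Genes that averaged 1 FPKM or more across all 4 libraries were fitted with limma 3.58.1 (R 4.3.3, trend) on log2(FPKM + 1), by genotype, and p-values were Benjamini-Hochberg adjusted over all 13651 genes fitted. The members and lists were chosen with earlier results of these data known. All collagen genes that passed this filter are given by library and the rest by range, and of other lists the called genes and the most abundant ones. Marker lists that move with a result are given beside it. The values of 1 microglia marker, and the sum of that list, are not reported here. Genes were placed with GENCODE M21 and near-identical copies sought with BLAST 2.17.0, which found none for the fitted collagen genes beyond the overlapping Tcfl5. Low FPKM steps gave an estimate of depth. Figures were drawn with matplotlib 3.10.9.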

Additional observations from a re-analysis of the deposited data

How the results depend on the processing

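Over all genes the limma fit called 304 higher and 123 lower in Zeb1-CKO. With a replicate block the counts were 155 and 38, without the filter on low values 70 and 15, and leaving out 1 library each gave 48 to 238 higher and 15 to 64 lower. A filter at a mean of 0.1 FPKM left 68 lower. The labels give no pairing of the libraries. Deviations of same-numbered libraries correlated at -0.118, which with 2 libraries per genotype cannot settle whether the numbers mark a shared batch. A crossed pairing, added after seeing the data, gave 306 higher and 149 lower. No collagen gene was called in any setting, apart from Col9a2 without control 2, so leaving out 1 library gave 0 to 1 called higher. The log2 difference of the basement-membrane to fibrillar ratio was 0.46 to 0.56 when 1 library was left out, and 0.68 with the narrow classes. Signs turned for genes with fold changes near 0. Leaving out 1 library each, the log2 fold change ran from -0.17 to 0.47 for Col1a1 (below 0 without Zeb1-CKO 2 or control 1), from -0.27 to 0.087 for Col4a1 and from -0.31 to 0.13 for Col4a2 (both above 0 without control 2), from -0.16 to 0.61 for Col23a1 (below 0 without control 1) and from -0.24 to 0.23 for Col28a1 (above 0 without control 2). Col28a1 was also at 0.0079 with a pseudocount of 0.1. In the same way, without a turn of sign, the log2 fold change moved by over 1.5 times for Col16a1 (-0.72 to -0.08), Col5a3 (-0.44 to -0.08) and Col8a1 (-0.24 to -0.10), the ends being without Zeb1-CKO 1 and Zeb1-CKO 2, for Col18a1 (0.06 without Zeb1-CKO 1 or control 1, 0.26 without either of the others), and for Col15a1 (-0.75 to -0.27), Col2a1 (0.68 to 1.41) and Col9a2 (0.72 to 1.76), the ends being without control 1 and control 2. Over the 24 single genes recomputed, 226 values kept their direction and side of the threshold and 30 no longer passed it, all of them for P3h2, Colgalt1, Pxdn and Tagln. Under the replicate block the adjusted p was 0.0836 for Colgalt1, 0.0629 for P3h2, 0.139 for Pxdn and 0.111 for Tagln. The cause was not tested. The 24 collagen genes under the filter entered the fit without it, and 0 of them were called.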
